A study of Mus musculus with 24 samples.

Results

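MicroRNAs (miRNAs) whose reads frequently carried a single untemplated A or a single untemplated U at the 3′ end were examined in exosome-enriched fractions (EEFs) of mouse hippocampus. The members were chosen by 2 values. A miRNA needed at least 200 reads over the 24 libraries, and its reads with a single added A plus those with a single added U had to reach 15% of all its reads, both sums taken over all libraries. This left 52 members among 259 miRNAs with at least 200 reads and 1073 miRNA names in the series. The height of the summed A and U share is therefore how the members were picked and is given as a description. The division between A and U, the arm of the hairpin and the place of the added base were not part of the choice. Differences between conditions were not used either, but the sums give more weight to the deeper libraries.

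All libraries came from male C57BL/6 mice of 6 to 9 weeks, of the substrain C57BL/6OlaHsd by the study's methods. Control mice received PBS in the basolateral amygdala, and KA mice received kainic acid (KA, 0.3 µg in 0.2 µl), a glutamate receptor agonist that triggers status epilepticus. Fractions were prepared by ultracentrifugation (UC) or with a precipitation kit, 24 h or 2 weeks after the injection, which gave 8 groups of 3 libraries: UC control 24h, UC KA 24h, UC control 2w, UC KA 2w, Kit control 24h, Kit KA 24h, Kit control 2w and Kit KA 2w. Every library was made from hippocampi pooled over several mice, midazolam was given to stop the seizures, and all fractions were treated with RNase A before RNA was extracted. The number of hippocampi per pool differed between UC and kit, so the method and its set of libraries cannot be told apart. Kit libraries were mostly deeper and so weighed more in the choice of members. By the same rule, UC libraries alone gave 36 miRNAs, 34 of them members, and kit libraries alone 50, of which 45 were members. Differences of members between kit and UC are therefore not independent of the choice.

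Nucleotides that the genome does not encode are added to the ends of miRNAs by terminal nucleotidyltransferases. TUT4 and TUT7 add uridines, best known from their action on precursors of the let-7 family, and TENT2 (GLD2) and PAPD5 add adenosines. The 3′ end of a 3p-arm miRNA is already exposed on the precursor hairpin, where Drosha has left it, whereas the 3′ end of a 5p-arm miRNA is made when Dicer removes the loop. In hairpins that bypass Drosha, such as mirtrons spliced from short introns, the splicing reaction sets the ends instead.

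Mature sequences are printed here because the tail is read against the 3′ end. They are those of the members with the 6 highest U and the 6 highest A shares among members with at least 1000 reads, without miR-23b-3p and miR-486b-5p, which RefSeq did not match by name, and with let-7f-2-3p, which had fewer reads and the highest U share of all members. They are from RefSeq (build GRCm38.p6), 5′ to 3′, with the seed (bases 2 to 8) in capitals. RefSeq held 44 of the 52 members by name, 3 of them at more than 1 locus. The mature sequence of let-7c-2-3p is also that of let-7a-1-3p, so reads under this name could have come from either hairpin.
miR-488-3p (Mir488, chr1:158505689-158505709, plus strand): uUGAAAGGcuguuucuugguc
let-7f-2-3p (Mirlet7f-2, chrX:151912403-151912423, plus strand): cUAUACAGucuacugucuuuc
let-7c-2-3p (Mirlet7c-2, chr15:85706664-85706685, plus strand): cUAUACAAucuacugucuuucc
miR-3085-3p (Mir3085, chr19:42280095-42280115, minus strand): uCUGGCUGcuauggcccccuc
miR-125b-2-3p (Mir125b-2, chr16:77646318-77646339, plus strand): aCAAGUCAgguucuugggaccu
miR-125b-1-3p (Mir125b-1, chr9:41581980-41582001, plus strand): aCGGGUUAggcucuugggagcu
miR-330-5p (Mir330, chr7:19181486-19181507, plus strand): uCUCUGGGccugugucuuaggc
miR-3099-3p (Mir3099, chr7:6803638-6803659, plus strand): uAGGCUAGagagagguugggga
miR-181d-5p (Mir181d, chr8:84178759-84178781, minus strand): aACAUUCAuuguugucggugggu
miR-181b-5p (Mir181b-1, chr1:137966650-137966673, plus strand, and Mir181b-2, chr2:38853845-38853868, plus strand): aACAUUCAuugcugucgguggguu
miR-877-5p (Mir877, chr17:35960795-35960814, minus strand): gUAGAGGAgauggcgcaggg

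Among the members, miR-181b-5p and miR-181d-5p share a seed. Both had mainly A tails. Of the 44 members with a RefSeq sequence, let-7i-5p and let-7e-5p also share a seed, and they divided: let-7i-5p had more A than U tails and let-7e-5p more U than A.

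A second set of sequences shows where the tail sat. Each holds 10 hairpin bases, then in capitals the hairpin base at the position that the most frequent tail of that member took, then the hairpin bases that follow. By construction the added base differs from the capital. The meaning of the deposited position was worked out from the rows and the hairpins and was not documented in the sources used here, so the windows rest on that reading.
let-7f-2-3p, U tail: acugucuuucCcac
let-7c-2-3p, U tail: acugucuuucCuga
miR-488-3p, U tail: uuucuuggucAgaa
miR-3085-3p, U tail: uggcccccucCcag
miR-125b-1-3p, U tail: cucuugggagCug
let-7e-5p, U tail: uuguauaguuGagg
let-7i-5p, A tail: uugugcuguuGguc
miR-181d-5p, A tail: uugucgguggGuug
miR-181b-5p (Mir181b-1), A tail: cugucgguggGuug
miR-330-5p, A tail: gugucuuaggCucu
miR-877-5p, A tail: uggcgcagggGaca
miR-3099-3p, A tail: agguuggggaUggg

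Both let-7 members from the 3p arm received their U after the same run of 10 hairpin bases. For let-7f-2-3p this was the first position beyond the annotated end, and for let-7c-2-3p it was the position of the annotated last base.

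The libraries held 85436 to 676726 miRNA reads. The deepest was replicate 2 of Kit KA 2w. Members received 9.13% of all reads and carried 50.8% of all single U tails and 30.3% of all single A tails. Reads per member ranged from 206 to 99460 (median 1700), and 169 of 1248 member and library pairs had under 10 reads, so that shares in single libraries are given only from 10 reads upward unless a group is listed in full. The 5 brain markers (miR-124-3p, miR-9-5p, miR-128-3p, miR-138-5p and miR-153-3p) together had a median of 36399 CPM (counts scaled to a common library total) in UC and 55659 CPM in kit libraries, and the oligodendrocyte markers miR-219a-2-3p and miR-338-3p 8189 and 1922 CPM. The 3 blood cell markers (miR-451a, miR-486a-5p and miR-144-3p) together had 0 to 11.3 CPM in UC and 0 to 184 CPM in kit. This list did not hold the member miR-486b-5p, which had 33 to 210 reads per library in UC and 94 to 987 in kit. The sum therefore does not show UC libraries to be free of blood cell miRNAs. The lower oligodendrocyte sum in kit was mostly that of miR-219a-2-3p (7223 and 851 CPM), since miR-338-3p had 1258 and 1086 CPM. Whether these differences in marker levels bear on the tail shares was not tested.

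Over all miRNA reads of the series, 3.06% ended in a single added U, 2.57% in a single added A, 0.223% in a single added C and 0.108% in a single added G. That A and U tails were frequent in members follows from the choice, while C and G were not part of it. The share of reads with an added C was under 1% in 46 of 52 members and that with an added G in 52 of 52. The median C share was 0.157% in members and 0.0558% in the other 207 miRNAs with at least 200 reads, and the median G share was 0.037% and 0.0439%. The highest C share among members was 4.45%, in miR-341-3p, whose mature sequence is highly repetitive.

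U was the more frequent tail in 38 members and A in 14. The division followed the arm of the hairpin. Of 36 members from the 3p arm, 32 (88.9%) had more U than A tails, and the median shares were 19.6% for U and 2.73% for A. Of 16 members from the 5p arm, 10 (62.5%) had more A than U tails, with medians of 13.8% for A and 8.76% for U. A tails made up a median of 12.4% of the single A and U tails in 3p-arm members and 66.2% in 5p-arm members. The other miRNAs had lower shares and a smaller gap between the arms. U exceeded A in 49 of 87 from the 3p arm (56.3%), A exceeded U in 54 of 101 from the 5p arm (53.5%), and the median A part was 38.2% and 52.2%. These are descriptions of miRNAs, which are not replicates, and no test was made across them.

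**Figure D1:**
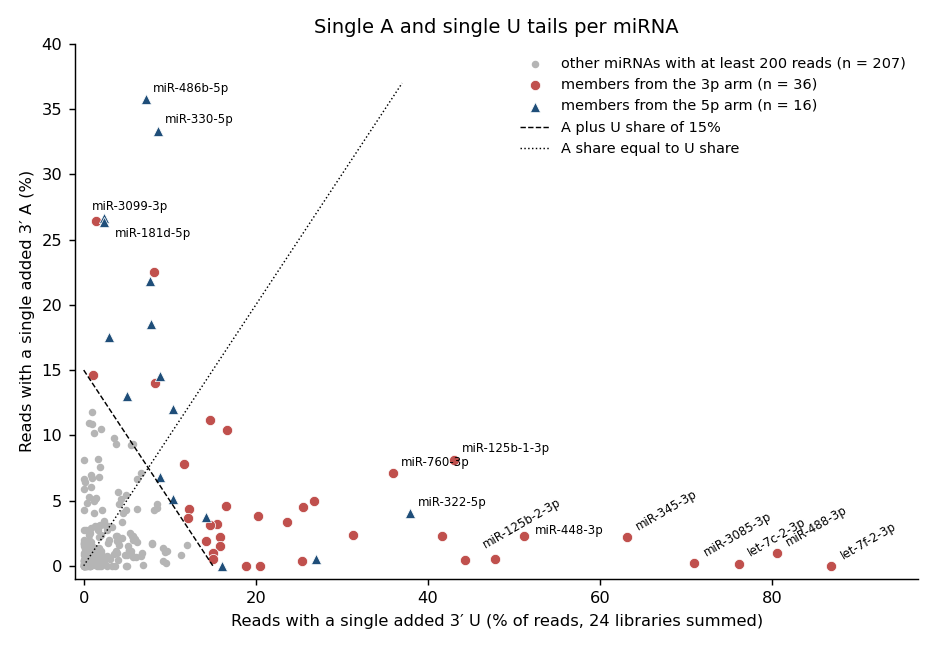
Each point is a miRNA with at least 200 reads, with the share of its reads carrying a single added U on the horizontal axis and a single added A on the vertical axis, both in percent over the 24 libraries summed. Members from the 3p arm (36) lie mostly along the U axis, up to 86.9% U in let-7f-2-3p, and 10 of 16 members from the 5p arm lie above the line of equal shares.

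Among members with at least 1000 reads, the 6 highest U shares all belonged to the 3p arm. Their tails were a majority or near majority of the reads rather than a fringe. In miR-488-3p 80.5% of 12829 reads had a U tail and 15.2% had no change at all. Its U share ran from 70.9% to 80.3% (median 74.1%) over the 12 UC libraries and from 75.8% to 90.3% (median 81.5%) over the 12 kit libraries, while its A share stayed at or under 2.48% in every library. The strand let-7c-2-3p, the passenger strand of a let-7 hairpin, had U tails in 70.3% to 88.4% of reads in UC (median 78.4%) and 56.7% to 83.1% in kit libraries (median 70.9%). In miR-3085-3p the U share was 65.0% to 80.0% in UC (median 76.0%) and 51.2% to 76.5% in kit libraries (median 63.7%). In these 3 members the U share exceeded 50% in every library.

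The 3p strands of miR-125b, a miRNA abundant in brain, came next. In these fractions they had more reads than the 5p strand, with 23239 for miR-125b-2-3p and 4721 for miR-125b-1-3p against 775 for miR-125b-5p. miR-125b-2-3p had U tails in 51.9% to 57.9% of reads in UC (median 54.0%) and 39.7% to 51.5% in kit libraries (median 43.1%), and the 2 ranges did not overlap. Its A share was under 1% in every library. miR-125b-1-3p had U tails in 36.1% to 53.1% of reads in UC (median 49.3%) and 33.0% to 51.7% in kit libraries (median 42.9%), together with an A share of 3.39% to 13.5%. Both had the U at the position before the annotated last base, with 98.6% and 98.9% of their U tails there. miR-23b-3p, from the miR-23b, miR-27b and miR-24 cluster, had U tails in 44.3% of 1349 reads, but only 181 of these reads came from UC libraries. Its U share was 20.0% to 50% in the 9 UC libraries with at least 10 reads and 24.4% to 54.5% in the 12 kit libraries.

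Several members with fewer reads reached the same height. let-7f-2-3p had U tails in 86.9% of 641 reads and no read with an A tail. In the libraries with at least 10 of its reads, its U share was 71.4% to 96.7% in UC (11 libraries) and 79.2% to 96.2% in kit (11 libraries). miR-345-3p had 63.1% U over 366 reads, miR-448-3p, a choroid plexus marker encoded in a serotonin receptor gene, 51.1% over 575 reads, and miR-322-5p, the mouse counterpart of human miR-424, 37.9% over 224 reads. The last is the highest U share from the 5p arm. Tailed reads outnumbered unmodified reads in 9 members, and 7 members had a tail share over 50%.

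Among well-covered members with U tails, miR-143-3p, known from smooth muscle, had the most reads. Of its 94443 reads, 25.3% had a U tail and 0.36% an A tail. The U share was 21.5% to 31.9% in UC (median 27.1%) and 21.9% to 35.4% in kit libraries (median 25.8%). miR-103-3p, from introns of the pantothenate kinase genes, had a U share of 18.8% and an A share of 0.01% over 9812 reads. An A share under 1% was seen in 13 members.

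The 6 highest A shares among members with at least 1000 reads came from the 5p arm in 5 cases and from the 3p arm in miR-3099-3p. miR-486b-5p, a miRNA abundant in red blood cells, led with A tails in 20.4% to 46.3% of reads in UC (median 27.5%) and 25.7% to 51.4% in kit libraries (median 36.8%). Its copy miR-486a-5p had a median of 0 CPM in UC and in kit. How shared reads were assigned is not given in the sources used here, so these values may hold reads of both. A further 32.1% of the reads under miR-486b-5p had 2 or more added As, and 12.8% were unmodified. miR-330-5p had A tails in 21.7% to 51.6% of reads in UC (median 26.8%) and 22.6% to 51.3% in kit libraries (median 36.5%), from 20 to 109 reads per library. In miR-3099-3p the A share was 18.5% to 32.1% in UC (median 24.0%) and 22.0% to 35.6% in kit libraries (median 26.1%), 19.1% of reads had 2 or more added As, and only 5.62% were unmodified. The ranges of UC and kit overlapped in all 3.

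The miR-181 family includes the A-tailed member with the most reads among those with the 6 highest A shares. miR-181b-5p, with 81734 reads, had A tails in 13.3% to 19.6% of reads in UC (median 16.4%) and 13.0% to 24.7% in kit libraries (median 17.9%). miR-181d-5p had A tails in 19.3% to 32.5% in UC (median 25.5%) and 17.4% to 38.0% in kit libraries (median 26.5%). Their U shares were 2.99% and 2.33%. The partner miR-181c-3p, from the opposite arm of a neighbouring hairpin, had 20.3% U and 3.78% A. The family's other 5p strands were no members and had few A tails. miR-181a-5p had 1.11% A and 1.66% U over 909178 reads, and miR-181c-5p 1.31% A and 0.176% U over 36348 reads.

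miR-877-5p, a mirtron product, varied more between libraries, with A tails in 0 to 30.8% of reads in UC (median 15.2%) and 8.70% to 27.8% in kit libraries (median 18.4%), from as few as 18 reads. Another 11.1% of its reads had 2 or more added As. The brain miRNA miR-134-5p, known for its part in dendritic spine size and seizures, had an A share of 21.8% over 714 reads and 2 or more As in another 19.3%. miR-483-5p, encoded within Igf2, had 26.6% over 214 reads.

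**Figure D2:**
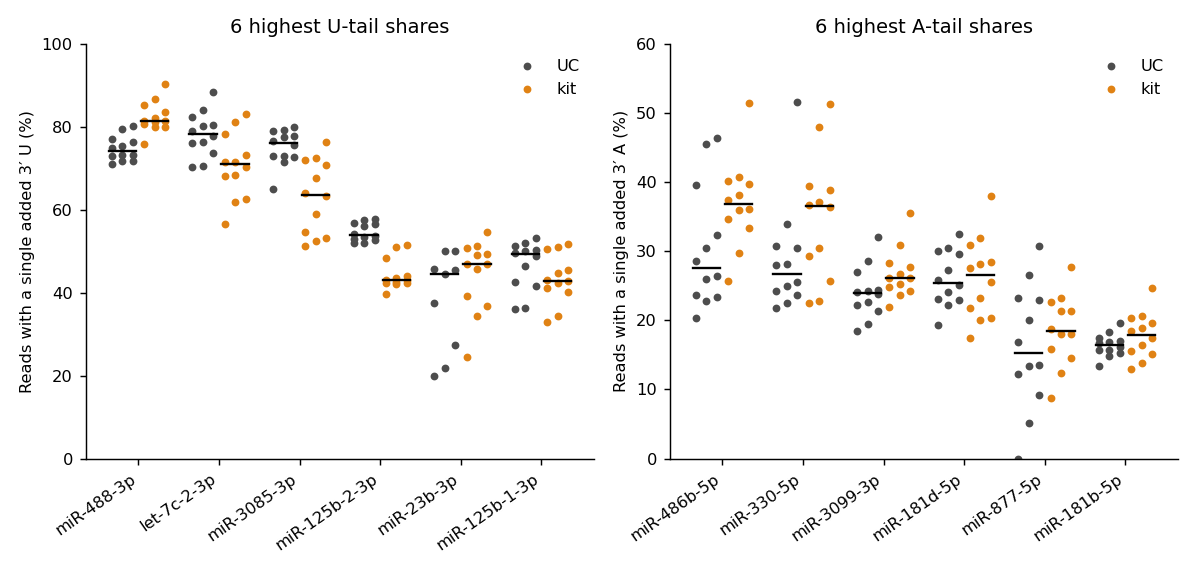
Each point is a library with at least 10 reads of the miRNA, UC in grey and kit in orange, and the black line is the median. The vertical axes give the percent of reads with a single added U (left, 6 members) or a single added A (right, 6 members). For miR-125b-2-3p the UC libraries (51.9% to 57.9%) all lie above the kit libraries (39.7% to 51.5%), and for the other 11 members the methods overlap.

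A smaller set had both tails. miR-151-3p had 11.2% A and 14.7% U, miR-184-3p 10.4% and 16.7%, miR-1224-5p, another mirtron product, 12.0% and 10.3%, and miR-126a-3p, the endothelial miRNA, 7.83% and 11.7%. Longer tails did not follow single tails closely. Tails of 2 or more As exceeded 5% of reads in 7 members and tails of 2 or more Us in 4. In miR-148b-3p 55.5% of reads had 2 or more added Us against 15.9% with a single U, and all its single U tails stood at the first position after the annotated end.

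The remaining members, all with a summed share under 45%, were miR-140-3p, miR-760-3p, miR-421-3p, miR-652-3p, miR-28a-3p, miR-99b-3p, miR-192-5p, miR-328-3p, miR-3057-5p, miR-330-3p, miR-378a-3p, miR-344d-3p, miR-770-3p, let-7i-5p, miR-146a-5p, miR-501-3p, miR-210-3p, miR-341-3p, miR-30a-3p, miR-350-5p, miR-203-3p, miR-138-1-3p, miR-666-5p, miR-370-3p, miR-30d-3p and let-7e-5p. U exceeded A in 21 of these 26. The 5 with more A were miR-28a-3p, miR-3057-5p, miR-330-3p, let-7i-5p and miR-370-3p. Closest to the limit of 15% were let-7e-5p (15.54%) and miR-30d-3p (15.57%) on the inside and miR-1198-5p (14.97%) and miR-26b-5p (14.7%) on the outside.

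The place of the added base was most fixed for U tails on the 3p arm. Positions were counted from the annotated mature end, read as 1 for the first base after it and 0 for the last mature base. In the 35 members from the 3p arm with at least 20 U tails, a median of 93.0% of U tails were at a single position. It was 69.4% in 50 other miRNAs from that arm. Members were chosen for a high tail share, so this contrast is not independent of the choice. The most frequent U position was the first after the end in 12 members, the last mature base in 9, further inside in 6 and further outside in 8. For the other tails the medians lay closer together, at 72.9% for A on the 3p arm (21 members), 74.7% for U on the 5p arm (15 members) and 66.4% for A on the 5p arm (14 members). In the other miRNAs these 3 medians were 71.4%, 70.3% and 68.1%. For reads that end at or inside the annotated end, a single added base cannot be told apart from a changed last base.

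The hairpin base under the most frequent tail differed between the arms. Under the A tail of 12 members from the 5p arm it was G in 10, C in 1 and U in 1, and under the U tail of 13 members from that arm it was G in 8, A in 4 and C in 1. On the 3p arm G was less common, in 5 of 24 members under the U tail (C in 11 and A in 8) and in 2 of 13 under the A tail (U in 6 and C in 5). The other 3p-arm miRNAs were similar, with G in 8 of 42 under the U tail (C in 19 and A in 15) and in 9 of 39 under the A tail (U in 19 and C in 11). In the 47 other 5p-arm miRNAs the base under the A tail was U in 23, C in 15 and G in 9, and in 42 with U tails it was G in 18, A in 15 and C in 9. These are counts over miRNAs with no test. The annotated last base was spread over all 4 bases in members from the 3p arm (A 7, C 7, G 8 and U 7 of 29), while in members from the 5p arm it was U in 6, G in 5, C in 3 and A in 1 of 15.

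Arms were paired only where their names differed in nothing but the arm. In 9 hairpins paired in this way, a member and its opposite arm both had at least 200 reads. The opposite arm was no member in 8 of them. For comparison, 207 of all 259 miRNAs with at least 200 reads were no members. In those 8 hairpins the summed A and U share of the opposite arm was 0.946% to 7.66% (median 3.26%). Members with a locus number in the name (let-7c-2-3p, let-7f-2-3p, miR-125b-1-3p, miR-125b-2-3p and miR-138-1-3p) were left out of this pairing. Their 5p strands let-7c-5p, let-7f-5p, miR-125b-5p and miR-138-5p also had at least 200 reads and were no members. For let-7i the 5p arm had 13.0% A and 5.00% U and the 3p arm 0.631% and 0.316%. For miR-30a, miR-30d, miR-99b, miR-126a, miR-151 and miR-181c the 3p arm was the tailed arm. In miR-330 both arms were members, with 33.4% A and 8.64% U on the 5p arm and 14.0% and 8.23% on the 3p arm. The 5 members miR-134-5p, miR-341-3p, miR-370-3p, miR-666-5p and miR-770-3p lay within chr12:109563744-109734166 (GRCm38.p6), the imprinted Dlk1-Dio3 region, which encodes many brain miRNAs. A was the more frequent tail in miR-134-5p and miR-370-3p and U in the other 3. Further miRNAs of this region with at least 200 reads, such as miR-127-3p, miR-434-3p and miR-410-3p, were no members. Whether members were more frequent in the region than elsewhere was not tested.

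Within the let-7 family, regulators of developmental timing and differentiation, 14 strands had at least 200 reads and 4 were members, against 52 of all 259. A exceeded U in 8 of the 9 guide strands. Among the 5p strands that were no members, let-7a, let-7b, let-7c, let-7d, let-7f, let-7g and miR-98, the A share was 2.77% to 9.83%, and the U share was 0.0104% to 0.1% except in let-7b-5p (3.48%) and miR-98-5p (1.64%). let-7i-5p reached 13.0% A and 5.00% U. let-7e-5p was the guide strand with more U (10.4%) than A (5.15%). The 3p strands divided, with 86.9% U in let-7f-2-3p, 76.2% in let-7c-2-3p and 9.27% in let-7g-3p, but 0.415% in let-7d-3p and 0.316% in let-7i-3p.

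Of 8 listed strands from hairpins that need no Drosha, 3 had at least 200 reads. The mirtron products miR-877-5p (18.5% A and 7.81% U) and miR-1224-5p (12.0% and 10.3%) were members, and miR-320-3p was not, with 9.55% U and 0.194% A. Of the miRNAs described elsewhere as substrates of single additions, miR-26b-5p had 9.23% A and 5.47% U, miR-26a-5p 0.931% and 5.51%, and miR-21a-5p 0.755% and 0.175%, and none was a member.

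The division between the arms was present in each of the 24 libraries. With the tails of all 3p-arm members added up within a library, A made up 8.21% to 13.4% of single A and U tails (median 9.96%). For 5p-arm members it made up 65.4% to 74.4% (median 69.9%), so the arms did not overlap. The levels were alike in the study's conditions. The 3p-arm medians were 9.64% in UC and 10.4% in kit, 10.8% in control and 9.64% in KA, and 10.1% at 24 h and 9.93% at 2 weeks. The 5p-arm medians were 70.7% and 69.6%, 70.5% and 69.9%, and 70.4% and 69.3%. The ranges of each pair overlapped. These sums are weighted toward the members with most reads. With every member counted equally, the median A part in a library was 2.14% to 14.8% for the 3p arm and 30.2% to 78.6% for the 5p arm.

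**Figure D3:**
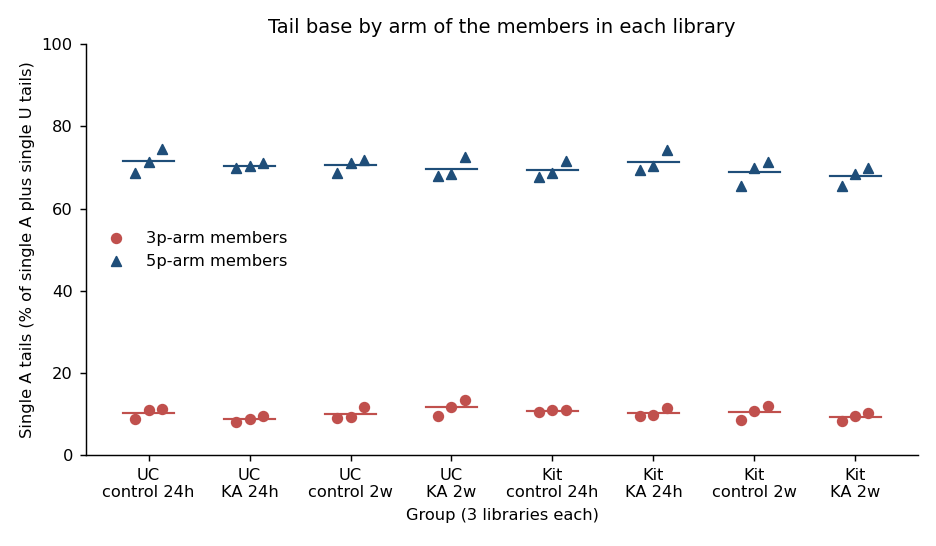
Each point is a library, in 8 groups of 3, and the line is the group mean. The vertical axis gives single A tails as a percent of single A plus single U tails, summed over the 36 members from the 3p arm (circles, 8.21% to 13.4%) or the 16 from the 5p arm (triangles, 65.4% to 74.4%).

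To ask whether the isolation method changed the tails, reads with a tail were set against all other reads of the same miRNA within each library, so that abundance and depth cancelled. The differences are log2 odds ratios (kit against UC, positive when the share was higher in kit) with their standard errors (SE), from edgeR's quasi-likelihood test on all 24 libraries, adjusted by Benjamini-Hochberg over all miRNAs with at least 200 reads and 20 tailed reads. U tails changed in some members in either direction. Of 50 members tested, 10 (20%) passed an adjusted p of 0.05, against 16.9% of all 154 miRNAs tested, with 5 of them higher in kit (7.14% of all miRNAs were) and 5 lower (9.74%). For A tails 4 of 35 members passed (11.4%), against 18.9% of all 143, with 3 higher in kit (11.9% of all) and 1 lower (6.99%). The share of members called was near the background for U and below it for A.

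The lowest p-values belonged to miR-151-3p, where A and U moved in opposite directions. Its A share was 5.06% to 12.5% in UC (median 6.30%) and 9.89% to 15.7% in kit (median 12.8%), a log2 odds ratio of 0.90 (SE 0.16, edgeR adjusted p = 3.94e-05). Its U share was 13.9% to 25.9% in UC (median 19.9%) and 10.4% to 15.9% in kit (median 12.5%), a log2 odds ratio of -0.83 (SE 0.14, edgeR adjusted p = 1.34e-05). By group of 3, the A shares were 5.06%, 5.50% and 6.16% in UC control 24h and 10.8%, 12.7% and 12.8% in Kit control 24h, and 6.22%, 7.87% and 12.5% in UC KA 2w and 10.8%, 13.4% and 15.7% in Kit KA 2w. A single UC library, in UC KA 2w, reached into the kit range. The position of the U differed as well, with 15.3% of U tails 3 bases beyond the end in UC and 5.75% in kit, a difference that was not tested.

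Among the U-rich members, miR-488-3p had more U tails in kit (0.68, SE 0.13, edgeR adjusted p = 1.47e-04), while miR-125b-2-3p (-0.59, SE 0.11, adjusted p = 7.34e-05), miR-3085-3p (-0.81, SE 0.19, adjusted p = 0.00134) and miR-140-3p, a cartilage miRNA (-0.62, SE 0.15, adjusted p = 0.00185), had fewer. The values of the first 3 are given above. In miR-140-3p the U share was 40.0% to 50.7% in UC (median 46.6%) and 29.5% to 45.5% in kit (median 34.6%). For let-7c-2-3p the 95% interval was -0.87 to -0.05 and the edgeR adjusted p 0.112, which did not pass.

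miR-330-5p lost U tails in kit, from 6.00% to 29.8% of reads in UC (median 14.1%) to 2.00% to 9.09% (median 5.40%), a log2 odds ratio of -1.66 (SE 0.33, edgeR adjusted p = 1.40e-04). In UC 79.7% of its U tails lay 3 bases inside the last base, against 27.9% in kit, a difference that was not tested. The opposite was seen in miR-486b-5p, whose U share was 1.43% to 9.09% in UC (median 4.21%) and 4.66% to 13.1% in kit (median 8.57%), a log2 odds ratio of 1.05 (SE 0.30, edgeR adjusted p = 0.00303). The blood cell markers miR-451a and miR-144-3p were also higher in kit libraries, with medians of 0 CPM in UC and 27.5 and 17.5 CPM in kit. The marker list did not hold miR-486b-5p itself, which had 4051 reads over the 24 libraries. The part of blood in this value was not tested. The call for miR-486b-5p was lost with limma (adjusted p = 0.0669).

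miR-666-5p, from the Dlk1-Dio3 region, had U tails in 1.64% to 12.5% of reads in UC (median 4.71%) and 2.27% to 20.0% in kit (median 10.2%), a log2 odds ratio of 1.27 (SE 0.32, edgeR adjusted p = 0.00156). miR-181c-3p passed narrowly for U (0.61, SE 0.23, edgeR adjusted p = 0.0496), with 7.32% to 21.4% in UC and 13.5% to 32.8% in kit, and was called in only 10 of the 24 fits that left out a library. miR-134-5p had fewer A tails in kit, 13.6% to 42.9% in UC (median 29.7%) and 9.30% to 28.6% in kit (median 17.3%), with a log2 odds ratio of -0.86 (SE 0.29, edgeR adjusted p = 0.0303). That call was lost without UC KA 24h replicate 2 or 3, UC control 24h replicate 3, UC control 2w replicate 2 or Kit control 2w replicate 2 (adjusted p up to 0.0944).

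let-7e-5p had more A tails in kit, 4.17% to 6.77% (median 5.37%) against 1.74% to 4.21% in UC (median 3.21%), with a log2 odds ratio of 0.78 (SE 0.16, edgeR adjusted p = 1.98e-04). Its U share, 7.24% to 12.4% in UC and 8.53% to 12.3% in kit, was not called. The UC group means of let-7e-5p were 3.09% to 3.26% for A and 9.19% to 11.1% for U, so its membership leaned on the kit libraries. In miR-378a-3p, a miRNA encoded with the metabolic regulator Ppargc1b, both tails were higher in kit, with log2 odds ratios of 0.50 for A (SE 0.13, edgeR adjusted p = 0.00353) and 0.53 for U (SE 0.12, adjusted p = 5.86e-04). Its medians were 4.04% and 5.80% for A and 13.4% and 18.6% for U. Against unmodified reads plus those with the other single tail, these 2 differences fell to 0.07 and 0.06 and were not called. Unmodified reads made up 32.2% of its total. The study reported heavy A-to-I editing of miR-378a, and reads changed inside the strand do not count as unmodified. Whether editing bears on the 2 lost calls was not tested.

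The balance of A against U tails within a miRNA was tested in the same way. It passed in 5 of 52 members, against 7.81% of all 192 miRNAs tested, with A gaining on U in kit in 4 (7.29% of all) and losing in 1 (0.521%). The log2 ratios were 1.49 for miR-151-3p (SE 0.20, edgeR adjusted p = 3.56e-11), 1.76 for miR-330-5p (SE 0.41, adjusted p = 3.49e-04), 1.14 for miR-125b-2-3p (SE 0.42, adjusted p = 0.0329), 0.65 for let-7e-5p (SE 0.22, adjusted p = 0.0305) and -1.64 for miR-666-5p (SE 0.52, adjusted p = 0.0226). For 21 members at least 1 of the 8 groups held no A tail or no U tail, and no interval was given. The first 2 were called in each fit that left out a library and under each of the 9 other settings, and the other 3 in 14 to 19 of 24 fits without a library. With the replicate block the calls of miR-125b-2-3p and miR-666-5p were lost (edgeR adjusted p = 0.101 for miR-666-5p). That of miR-125b-2-3p was also lost with DESeq2 (adjusted p = 0.14) and with no minimum of tailed reads, and that of let-7e-5p with tails of any length (edgeR adjusted p = 0.339).

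**Figure D4:**
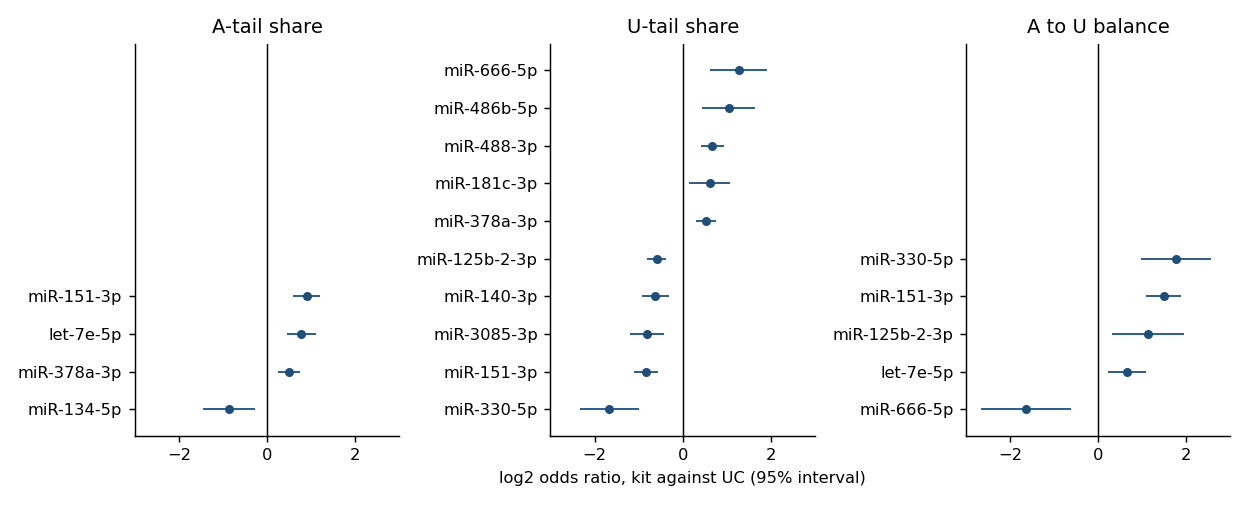
Points are log2 odds ratios of kit against UC for the members with an edgeR adjusted p under 0.05, and bars are 95% intervals. Positive values mean a higher share in kit, or in the right panel more A relative to U. U tails were higher in kit in 5 members and lower in 5, and miR-151-3p appears on opposite sides of 0 for A and U.

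Whether status epilepticus altered the tails was asked by comparing KA with control over both methods and times. No member and no other miRNA passed for A tails (0 of 143, 0.0%), for U tails (0 of 154, 0.0%) or for their balance (0 of 192, 0.0%) with edgeR, and limma and DESeq2 called 0 as well. At an unadjusted p under 0.05 edgeR gave 4 of 35 members for A, 2 of 50 for U and 3 of 52 for the balance, against 9.09%, 3.25% and 4.69% of all miRNAs tested. The median size of the difference in members was 0.18 on the log2 scale for A and 0.15 for U, smaller than the median SE of 0.30 and 0.29. The 95% interval lay within 1 log2 unit on either side of 0 for 20 of 32 members with an interval for A and for 31 of 45 for U. In the other 12 and 14 it reached further, and in 3 and 5 members a group without a tail of the kind left no interval.

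The members with the highest shares show the spread behind these counts. The U share of miR-488-3p was 73.0% ± 2.00 (SD, n = 3) in UC control 24h and 73.5% ± 1.79 in UC KA 24h, and 78.9% ± 2.70 in Kit control 24h and 82.6% ± 2.25 in Kit KA 24h. At 2 weeks the order was the other way, with 78.7% ± 2.14 in control and 74.1% ± 2.71 in KA for UC, and 84.7% ± 5.20 and 83.5% ± 2.89 for kit. Over all groups its log2 odds ratio was -0.04 (SE 0.13, edgeR adjusted p = 1.00). For miR-143-3p the U share was 22.1% to 35.4% in control (median 26.5%) and 21.5% to 30.4% in KA libraries (median 26.1%), with a log2 odds ratio of -0.11 (95% interval -0.37 to 0.14). For let-7i-5p the A share was 10.6% to 18.2% in control (median 13.0%) and 8.57% to 16.3% in KA (median 12.2%), with a log2 odds ratio of -0.13 (95% interval -0.37 to 0.11). Control and KA libraries overlapped in all 3.

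Some members lay further apart without passing. The lowest p-value for A among members was that of miR-483-5p, with A tails in 20.5% of 112 control reads and 33.3% of 102 KA reads over the libraries summed (edgeR adjusted p = 0.183). miR-421-3p had A tails in 3.58% of 615 control and 1.62% of 1046 KA reads (edgeR adjusted p = 0.377). Their fitted log2 odds ratios, 1.69 and -1.85, depend on the added prior count, since a group held no A tail. The A share of miR-125b-1-3p was 5.06% to 13.5% in control (median 9.57%) and 3.39% to 10.1% in KA libraries (median 5.90%), a log2 odds ratio of -0.54 (SE 0.20, edgeR adjusted p = 0.215). In miR-877-5p the A share was 0 to 30.8% in control (median 15.1%) and 12.2% to 27.8% in KA (median 21.3%), a log2 odds ratio of 0.53 (SE 0.26, edgeR adjusted p = 0.470), and the U share 0 to 17.9% and 2.78% to 9.64%, a log2 odds ratio of -0.71 (SE 0.34, adjusted p = 0.895).

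**Figure D5:**
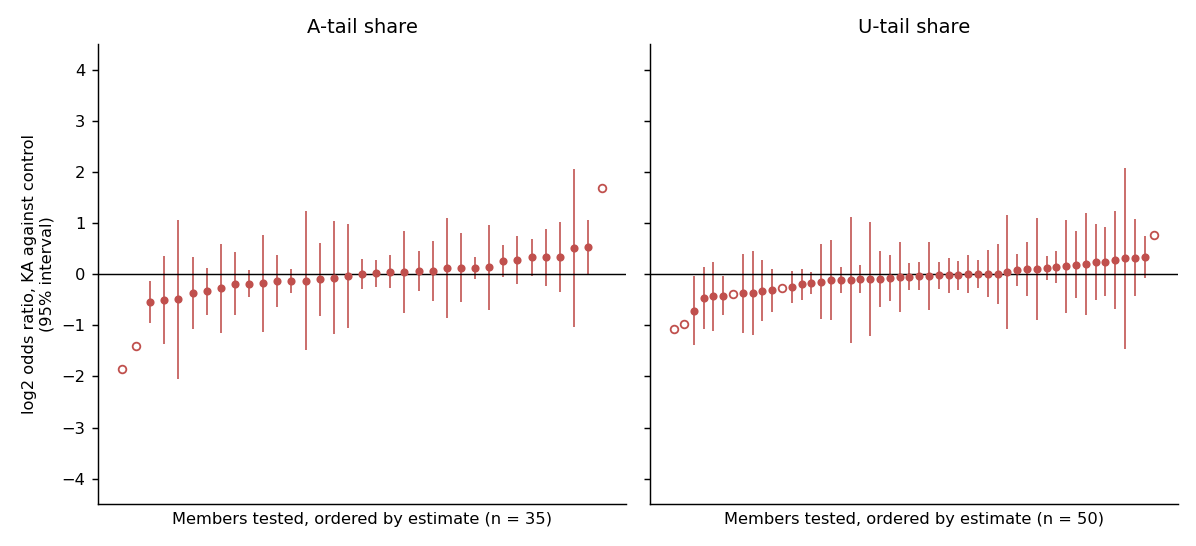
Log2 odds ratios of KA against control for the A-tail share (35 members) and the U-tail share (50 members), ordered by size, with 95% intervals from edgeR. Open circles (3 for A and 5 for U) are members in which a group held no such tail, and they have no interval. No member passed the adjusted threshold in either panel.

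Within UC and within kit libraries, KA against control also gave 0 calls among members and other miRNAs for A and for U tails. Neither the difference of the KA effect between methods nor that between times passed for any miRNA. At an unadjusted p under 0.05, edgeR gave for A 2 of 35 members in UC (4.9% of all miRNAs) and 3 of 35 in kit (6.29%), and for U 0 of 50 in UC (1.3%) and 2 of 50 in kit (5.19%). For the difference between methods it gave 5 of 35 for A (6.29%) and 0 of 50 for U (3.9%), and for the difference between times 0 of 35 (5.59%) and 2 of 50 (7.14%). miR-181b-5p and miR-181d-5p gave the nearest pair of values with a common seed. In kit, the A share of miR-181b-5p was 14.4% ± 1.78 (SD, n = 3) in control and 20.2% ± 0.55 in KA at 24 h, and 17.1% ± 1.49 and 19.6% ± 4.83 at 2 weeks. In UC it was 16.9% ± 1.28 and 16.5% ± 0.77 at 24 h, and 17.3% ± 2.40 and 14.9% ± 1.42 at 2 weeks. The KA effect was larger in kit than in UC by 0.55 log2 units for miR-181b-5p (SE 0.21, edgeR adjusted p = 0.496) and by 0.71 for miR-181d-5p (SE 0.30, edgeR adjusted p = 0.537), and neither passed.

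Between 24 h and 2 weeks a single miRNA passed for A tails, 1 of 143 (0.699%), and it was the member miR-666-5p. Its A share was 4.11% to 16.0% at 24 h (median 9.56%) and 0 to 10.7% at 2 weeks (median 3.57%), a log2 odds ratio of -1.31 (SE 0.35, edgeR adjusted p = 0.0294). By group of 3, the A shares were 10.3%, 13.1% and 15.7% in UC control 24h and 2.63%, 9.76% and 10.7% in UC control 2w, and 5.00%, 12.3% and 16.0% in UC KA 24h and 1.32%, 1.64% and 2.33% in UC KA 2w. In kit they were 4.35%, 5.36% and 8.57% in control and 4.11%, 8.86% and 11.7% in KA at 24 h, and 0, 3.92% and 4.60% and 3.23%, 5.17% and 7.50% at 2 weeks. The groups did not overlap in UC KA and overlapped in Kit KA. At an unadjusted p under 0.05 there were 3 of 35 members, against 8.39% of all miRNAs. The call of miR-666-5p was lost in 9 of 24 fits that left out a library (edgeR adjusted p up to 0.198) and with DESeq2.

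U tails and the balance of A and U gave 0 calls for time (0.0% of 154 and of 192) with edgeR, limma and DESeq2. At an unadjusted p under 0.05 edgeR gave 4 of 50 members for U (9.09% of all miRNAs) and 1 of 52 for the balance (1.56%). Among these, the U share of miR-488-3p was 70.9% to 85.2% at 24 h (median 75.6%) and 71.8% to 90.3% at 2 weeks (median 80.2%), a log2 odds ratio of 0.28 (SE 0.13, edgeR adjusted p = 0.523).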

How the data were processed

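Small RNA libraries from 24 EEF samples, described as biological replicates of pooled tissue, were sequenced by the authors on a MiSeq and passed through the Chimira web server, which trimmed adapters and mapped reads to miRBase hairpins. The deposited values are raw counts per miRNA and per modification (type, arm, position and pattern). Entries marked as doubled were left out, since totals then matched in 11992 of 11992 miRNA and library pairs. Reads were not remapped, so a sequencing mismatch at the last base would count as a tail. The members, lists and tests were chosen with earlier results of these data known. Shares were compared with edgeR 4.0.16 (R 4.3.3), with a column per library and a tail coefficient per group, and tested on simulated data first. There, 2-fold changes of the odds between kit and UC were called in 35% of cases for A, 50% for U and 22% for the balance. SEs came from the fitted information times the quasi-dispersion, and none was given where a group had no tailed read. limma 3.58.1 (pseudocount 0.5) and DESeq2 1.42.0 were alternatives. Values were given for the 6 members with the highest A and the 6 with the highest U share among those with at least 1000 reads, for neighbours of the threshold, for the listed families and, per comparison, for up to 5 members per direction past the threshold. Other members were described after their values were seen.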

Additional observations from a re-analysis of the deposited data

How the results depend on the processing

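The count of members was 52 and lay between 35 and 73 under 10 other definitions and between 47 and 53 with a library left out. It was 47 without Kit KA 2w replicate 2, the deepest library. With UC libraries alone 36 miRNAs passed, 34 of them members, and with kit libraries alone 50, of which 45 were members. None of the 20 called differences of members changed sign under an alternative, and differences that were not called were not followed across settings. Between kit and UC, the A-tail count of 27 fell to 15 with DESeq2, and the balance count of 15 rose to 28 with limma, 12 of them members. The cause was not tested. The U-tail count was 26 and ran from 23 to 38. With a library left out the counts were 20 to 29 for A, 24 to 30 for U and 10 to 17 for the balance. For time, the A-tail count of 1 became 0 with DESeq2, with tails of any length and with no minimum of tailed reads, and was 0 to 1 with a library left out. It was 0 without UC control 2w replicate 1, UC KA 2w replicate 1 or 3, UC KA 24h replicate 2 or 3, Kit control 24h replicate 2, Kit KA 24h replicate 2, Kit KA 2w replicate 2 or Kit control 2w replicate 3. KA against control had 0 calls with each alternative, and with a library left out 0 to 1 for A overall and in UC (1 without UC KA 24h replicate 3), 0 to 2 for A in kit (2 without Kit KA 2w replicate 3) and 0 to 1 for U in kit (1 without Kit KA 24h replicate 1).

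Of the 20 calls of members, those lost in at least 1 fit without a library were miR-134-5p, miR-181c-3p and miR-666-5p (A, time) among the shares and let-7e-5p, miR-125b-2-3p and miR-666-5p for the balance. The same replicate number did not pair libraries. Correlations of same-numbered libraries ran from -0.166 to 0.176 for A and from -0.20 to 0.259 for U, and exceeded 0.1 in 3 and 5 of 12 pairs. With the replicate block the counts for kit against UC were 27 for A, 27 for U and 13 for the balance, time kept 1 for A, and KA kept 0. The calls lost under the block were miR-181c-3p for U and miR-125b-2-3p and miR-666-5p for the balance. Other calls were lost with other settings. Both of miR-378a-3p were lost against unmodified reads plus those with the other single tail (0.07 and 0.06). The call of miR-486b-5p for U was lost with limma, and that of miR-134-5p for A with DESeq2 and with no minimum of tailed reads. That of let-7e-5p for the balance was lost with tails of any length. Depth limits single libraries most, since 169 of 1248 member and library pairs held under 10 reads.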

Other observations

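Added C and G were rare in members but not everywhere. Outside the members, miR-376b-3p had a single added C in 60.3% of 862 reads, miR-487b-3p in 19.7% of 274 and miR-137-3p in 14.4% of 1428, and miR-153-3p had a single added G in 5.69% of 4150 reads. These 4 were chosen after their values were seen, and no test was made of them.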
